A study of Mus musculus with 6 samples.

Results

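The genes of the translation initiation factors were followed across 6 expression arrays of mouse gastrocnemius muscle. The set held every gene whose single gene symbol on the array platform began with Eif and a digit, with Eif4ebp1 left out, and was chosen by name and not by signal. It came to 46 of 18193 genes. Each gene was read from the probe set (a group of short probes for 1 transcript) with the highest mean log2 signal over the 6 arrays. Of these genes, 45 passed a filter on low signal, which 11526 genes passed in all. Eif4a3, an RNA helicase of the exon junction complex, did not pass, with signals of 4.77 to 27.8 on its only probe set with a single symbol. Eif2s1 and Eif4g1 were not analysed here, as no probe set carried either as its single symbol.

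The muscle came from male C57BL/6J mice that began their diets at 6 weeks of age and ate them for 15 weeks. The Control diet (D12450B) had 10% of its energy as fat and the high-fat diet (HF, D12492) 60%. The third, HF+SFC+ALA, added to that high-fat feed an iron salt, sodium ferrous citrate (SFC, 0.023% by weight), plus a heme precursor, 5-aminolevulinic acid phosphate (ALA, 0.2% by weight). Mice of each diet were sampled after 4 h or 24 h without food, and the RNA of each of these 6 groups was pooled for 1 array. The sources used here do not say how many mice made up a pool. The sample labels state an age of 21 months, which the feeding scheme contradicts. No combination of diet and fasting time was repeated, so a fasting time had 3 pools and a diet 2. Each p-value sets a difference against the spread of the pools around additive effects of diet and fasting time. That spread was moderated with the spread of other genes. Such spread may be technical, and a fasting response that differs by diet counts in it too.

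Initiation is the step of protein synthesis at which the small ribosomal subunit finds the start codon of an mRNA. The eIF4 factors bind the cap and unwind the leader, eIF3 and eIF1A hold the small subunit ready for scanning, eIF2 brings the initiator tRNA, and eIF5 and eIF5B act at start codon recognition and subunit joining. The exchange factor eIF2B reloads eIF2 with GTP, and the eIF2 kinases block that reloading under stress, while eIF4E-binding proteins keep the cap-binding protein from the eIF4G scaffold. In muscle, feeding and insulin raise initiation through mTORC1 and fasting lowers it, largely by changing the phosphorylation of these factors, which arrays of RNA do not measure.

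The deposited values were MAS5 signals, a linear intensity for each probe set, and all 6 arrays had been scaled to the same trimmed mean. The median signal over probe sets ran from 62.98 to 69.51. The defining markers of skeletal muscle were all measured (10 of 10), and their summed signal ran from 410483 to 481601 with none called in any comparison. For actin, a control whose 3' over 5' signal gauges RNA integrity, that ratio was 1.516 in the HF pool at 4 h and 1.075 to 1.216 in the other 5 pools. The same ratio for a second control, Gapdh, did not set that pool apart, at 0.8322 against 0.8137 to 0.8632 in the other 5. In bulk muscle, fewer cells of a type and less RNA per cell cannot be told apart.

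Initiation factor genes varied little between the pools. The ratio of the highest to the lowest of the 6 signals had a median of 1.255 over the 45 genes, against 1.416 over all 11526 genes. It ran from 1.063 for Eif2s2, the beta subunit of eIF2, to 3.148 for Eif5a2, a paralog of the elongation and hypusine-bearing factor eIF5A. Only 4 members passed 1.5 (8.89%, against 40.2% of all genes), namely Eif2ak2 at 1.62, Eif2ak4 at 1.725, Eif1ad at 1.856 and Eif5a2. Of these 4, Eif2ak2, Eif2ak4 and Eif5a2 were dim, at mean log2 signals of 6.67, 6.70 and 6.24. The 45 genes as a set were bright, with a median mean log2 signal of 11.51 against 9.088 for all genes. Their spread was not compared with that of genes of like signal. Signals of different probe sets cannot be ranked as transcript levels.

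**Figure D1:**
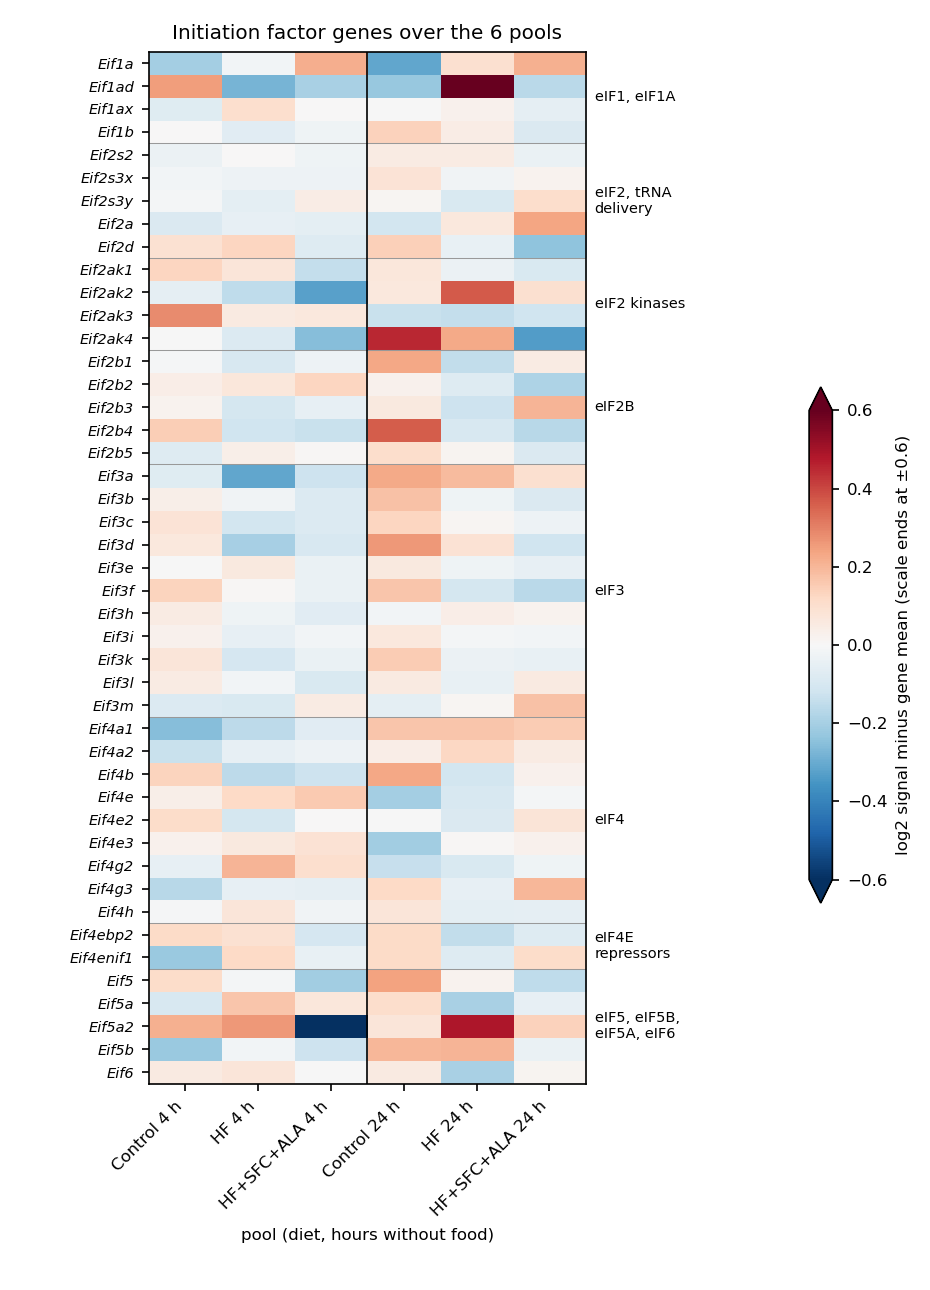
Each row is 1 of the 45 initiation factor genes, each column 1 pool, and the colour is the log2 signal minus the gene's mean over the 6 pools, with the scale ending at ±0.6. Most cells are pale, while Eif1ad in the HF pool at 24 h and Eif5a2 in the HF+SFC+ALA pool at 4 h stand out.

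Differences were estimated with an additive limma model of diet and fasting time over all genes, and a gene was called at an adjusted p under 0.05 (Benjamini-Hochberg over 11526 genes). Between 24 h and 4 h without food, 2 of the 45 genes were called and both were higher after the longer fast: Eif4a1 and Eif3a. Over all genes 278 were called (2.41%), 1.49% higher and 0.92% lower, so 2 of 45 is close to that background. The difference was positive for 30 members and negative for 15, and ran from -0.26 to 0.46 on the log2 scale. Its median was 0.04, against 0.01 for all genes.

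Eif4a1 encodes eIF4A1, the RNA helicase of the cap complex that unwinds the mRNA leader. Its signals, given here and for all genes that follow in the order Control, HF, HF+SFC+ALA, were 4123, 4404 and 4681 at 4 h and 5514, 5507 and 5457 at 24 h. All pools at 24 h lay above all pools at 4 h, and the 24 h pools were nearly level across the diets. The fitted log2 difference was 0.32 ± 0.07 (SE, 3 pools against 3), a 1.249-fold rise with an adjusted p of 0.04909 by limma. Pair by pair, within a diet, it ran from 0.22 to 0.42. The other probe sets of Eif4a1 above the filter gave 0.30 and 0.25.

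Eif3a encodes the largest subunit of eIF3, the scaffold on which the complex is built. Its signals were 5893, 4992 and 5699 at 4 h and 7250, 7070 and 6630 at 24 h. The pools of both times again did not overlap, and the HF pool at 4 h was the lowest of all. The log2 difference was 0.34 ± 0.07 (SE), 1.266-fold, with an adjusted p of 0.0491 by limma, and pairs ran from 0.22 to 0.50. All 4 probe sets of the gene were higher at 24 h in the fit, the others by 0.28, 0.22 and 0.08.

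Both calls lay close to the threshold. With any 1 pool left out Eif4a1 was no longer called (adjusted p 0.0737 to 0.154), while its difference stayed between 0.27 and 0.37. Eif3a was called without either Control pool (adjusted p 0.0152 and 0.016) and was not without the HF or HF+SFC+ALA pool of either time (0.0972 to 0.134). Without either Control pool Eif1ad was called too, higher by 0.46, where its HF pair gave 0.89 and its HF+SFC+ALA pair 0.03. Its Control pair, then left out, was -0.48, and a second probe set gave 0.20 in the HF pair and 0.07 in the HF+SFC+ALA pair. Leaving out 1 pool takes its diet out of the fasting difference altogether. Without the HF pool at 4 h, the one with the high actin ratio, the differences were 0.32 for Eif4a1 and 0.26 for Eif3a.

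**Figure D2:**
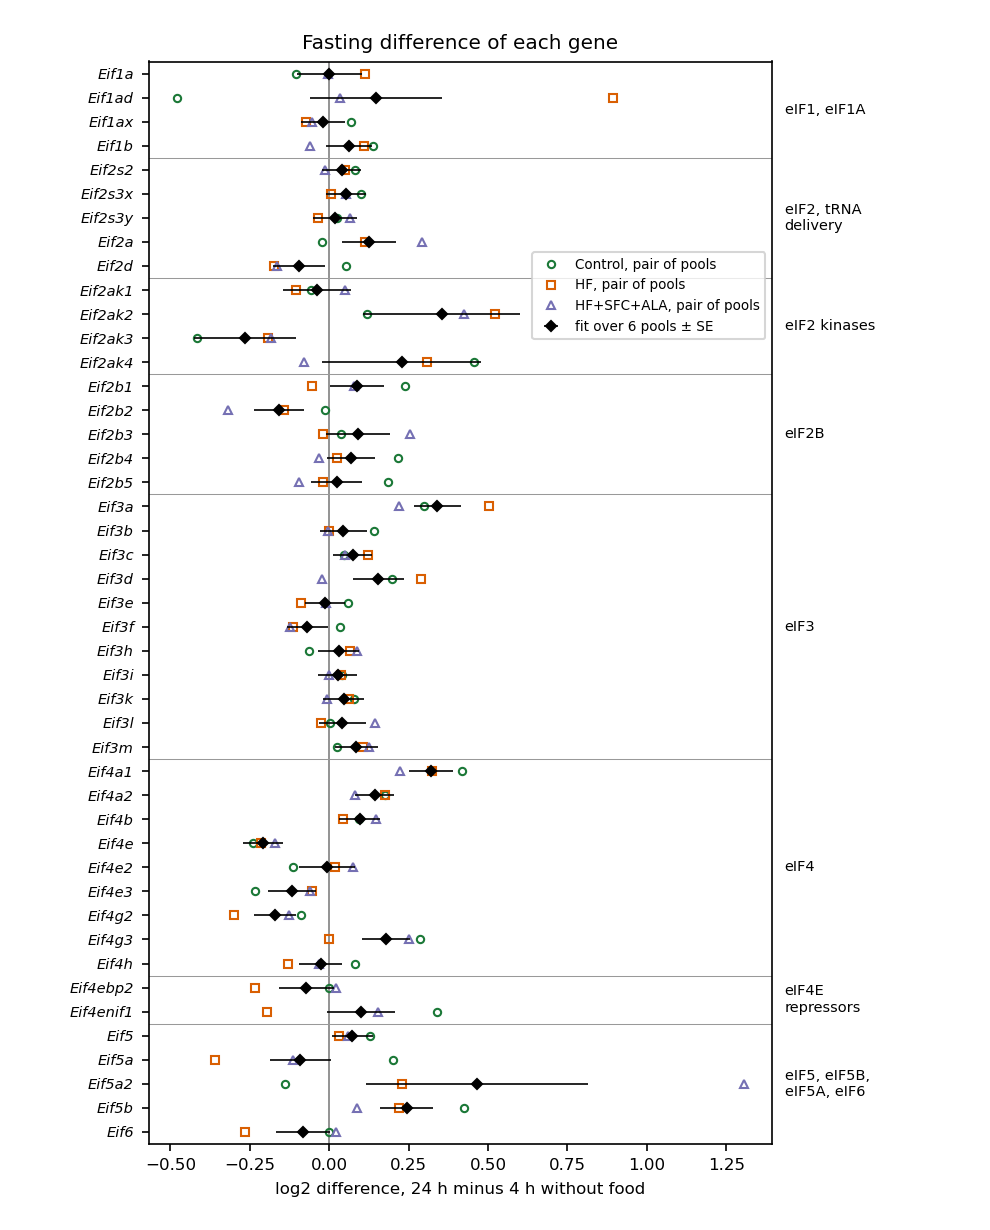
Open symbols give the log2 difference, 24 h minus 4 h, in each pair of pools of 1 diet, and black diamonds the fitted difference with its standard error, for the 45 genes. All 3 pairs lie above 0 for 11 genes (21.0% of all genes tested), with Eif3a, Eif4a1 and Eif4a2 among them. They lie below 0 for 5 (18.3% of all genes), with Eif4e and Eif4g2 among them.

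The bases upstream of both called genes, of the paralog Eif4a2 and of Eif4e, the cap-binding protein, are shown. The last pair did not pass the test and stand for comparison, as their pools at the 2 times did not overlap either, higher at 24 h for Eif4a2 and lower for Eif4e. Each is the 250 bases before the annotated start, from RefSeq on GRCm38.p6, written along the gene's strand from 5′ to 3′. Capitals mark the E-box CACGTG and the CCAAT box, searched on both strands.
Eif4a1: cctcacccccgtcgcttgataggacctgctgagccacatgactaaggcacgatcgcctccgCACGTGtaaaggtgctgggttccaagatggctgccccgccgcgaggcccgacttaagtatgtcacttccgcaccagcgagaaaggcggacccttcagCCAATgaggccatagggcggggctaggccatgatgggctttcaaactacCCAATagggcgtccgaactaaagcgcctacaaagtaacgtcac
Eif4a2: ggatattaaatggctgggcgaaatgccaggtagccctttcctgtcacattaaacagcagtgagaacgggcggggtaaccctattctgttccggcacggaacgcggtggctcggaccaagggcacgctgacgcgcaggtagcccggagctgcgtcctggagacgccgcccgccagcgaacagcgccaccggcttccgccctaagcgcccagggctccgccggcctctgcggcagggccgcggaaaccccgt
Eif3a: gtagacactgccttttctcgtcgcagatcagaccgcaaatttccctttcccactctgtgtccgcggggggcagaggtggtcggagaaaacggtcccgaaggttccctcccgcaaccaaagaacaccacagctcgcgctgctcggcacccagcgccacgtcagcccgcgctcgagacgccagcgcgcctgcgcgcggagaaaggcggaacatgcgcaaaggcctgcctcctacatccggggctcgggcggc
Eif4e: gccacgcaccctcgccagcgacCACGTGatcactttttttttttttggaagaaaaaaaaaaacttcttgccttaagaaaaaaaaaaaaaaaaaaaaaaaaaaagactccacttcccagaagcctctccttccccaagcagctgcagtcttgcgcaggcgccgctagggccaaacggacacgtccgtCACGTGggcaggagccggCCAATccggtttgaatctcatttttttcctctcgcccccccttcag
They lie at chr11:69672424-69672673 (minus strand, Eif4a1), chr16:23107218-23107467 (plus strand, Eif4a2), chr19:60790694-60790943 (minus strand, Eif3a) and chr3:138527018-138527267 (plus strand, Eif4e). The Eif4a1 window held an E-box beginning at position -189 from the start and CCAAT boxes at -92 and -43. In the Eif4e window E-boxes began at -228 and -64 and a CCAAT box at -46, while a second annotated window of that gene held neither. The windows of Eif4a2 and Eif3a held none of these letters.

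Among all members, 38 of 46 had at least 1 such window, 51 windows in all. The E-box, the sequence that Myc and USF proteins bind, stood in 10 of the 51 (19.6%), in 8 genes, against 6.02% of 32851 windows of the same length over all genes. The ETS motif CCGGAAG was in 11 windows (21.6%, against 6.91%). The CCAAT box was in 13 (25.5%, against 33.8%), TATAAA in 3 (5.88%, against 12.4%) and the FoxO motif GTAAACA in 1 (1.96%, against 3.17%, in Eif2s3y). Neither the cAMP response element TGACGTCA (1.55% of all windows) nor the ATF4 composite element TGATGNAAT (0.816%) was found in a member's window. The median GC content was 61.2% in the members' windows and 52.4% in all. None of these strings contains another, and a match is a description of letters, not of binding.

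Other genes of the cap complex did not pass the test for fasting. Eif4e, the cap-binding protein itself, read 6233, 6602 and 6772 at 4 h and 5274, 5685 and 6023 at 24 h. Every pool at 24 h was below every pool at 4 h, and within both times the order Control, HF, HF+SFC+ALA was the same. The log2 difference was -0.21 ± 0.06 (SE) with an adjusted p of 0.13 by limma. Of its other probe sets, 2 gave -0.17 and -0.14 and the dimmest 0.06.

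Eif4a2, the second cytosolic eIF4A helicase, read 20312, 21523 and 21854 at 4 h and 22939, 24304 and 23103 at 24 h. These pools did not overlap either, with a log2 difference of 0.14 ± 0.06 and an adjusted p of 0.2694. Eif4g2, an eIF4G relative that lacks the cap-binding part, read 25609, 30601 and 28442 at 4 h and 24074, 24888 and 26082 at 24 h. It was lower at 24 h in each diet (-0.17 ± 0.07, adjusted p 0.2272 by limma), though the times overlapped because the Control pool at 4 h lay below the HF+SFC+ALA pool at 24 h. Pools of the 2 times did not overlap for 4 members above (Eif2ak2, Eif3a, Eif4a1, Eif4a2; 10.6% of all genes) and 4 below (Eif2ak3, Eif2b2, Eif4e, Eif4e3; 8.36% of all genes). Over the 9 eIF4 genes that passed the filter, 4 differences were positive and 5 negative.

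The 4 eIF2 kinases each answer a different stress: Eif2ak1 heme shortage, Eif2ak2 (PKR) double-stranded RNA, Eif2ak3 (PERK) unfolded protein in the endoplasmic reticulum and Eif2ak4 (GCN2) lack of amino acids. None was called in any comparison. Eif2ak1, the heme-regulated kinase, read 592, 570 and 492 at 4 h and 569, 530 and 509 at 24 h. On the chosen probe set the HF+SFC+ALA pool was the lowest at both times. The log2 difference from HF was -0.14 ± 0.13, with an adjusted p of 0.9728 by limma. This order was not shared by the gene's remaining probe sets that passed the filter. There HF+SFC+ALA lay below HF at 4 h (-0.17 and -0.39) and above it at 24 h (0.11 and 0.29). Fitted over both times, these came to -0.03 and -0.05.

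Eif2ak2 was a dim gene that read 98.3, 92.0 and 81.5 at 4 h and 107, 132 and 109 at 24 h. Its pools were higher at 24 h without overlap, at 0.35 ± 0.25 on the log2 scale and an adjusted p of 0.5135. Eif2ak3 read 272, 232 and 234 at 4 h and 204, 203 and 206 at 24 h, lower in each diet (-0.26 ± 0.16, adjusted p 0.442 by limma). A second probe set of Eif2ak3 was lower at 24 h on Control (-0.26) and HF+SFC+ALA (-0.48) and higher on HF (0.22). Eif2ak4 read 103, 97.9 and 86.7 at 4 h and 142, 121 and 82.2 at 24 h, so the longer fast was higher on the Control and HF diets and lower on HF+SFC+ALA. At both times its signal was highest on Control and lowest on HF+SFC+ALA.

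For eIF3, 9 of 11 subunit genes had a positive fasting difference, with a median of 0.04, and Eif3a was the only one called. In the group of later steps, Eif5a, the hypusine-bearing factor, read 20812, 24901 and 23283 at 4 h and 23921, 19403 and 21496 at 24 h with no common direction. Eif6, which keeps the large ribosomal subunit from joining too early, read 2048, 2074 and 1968 at 4 h and 2046, 1724 and 1996 at 24 h, and only its HF pool at 24 h stood lower. Eif4ebp2, an eIF4E-binding repressor, read 1456, 1428 and 1254 at 4 h and 1455, 1214 and 1273 at 24 h.

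For the high-fat diet against Control no member was called, while 102 of all genes were (0.885%; 0.564% higher and 0.321% lower). At an unadjusted p under 0.05 there were 4 of 45, 1 higher and 3 lower, against 14.7% of all genes. More differences were negative (29 of 45) than positive, with a median of -0.06 against -0.0002 for all genes. That median was -0.02 when the 24 h pool of HF was dropped, -0.09 when the 4 h pool of Control or of HF was dropped, and -0.03 with the mean over a gene's probe sets (19 of 42 positive). In 15 members both HF pools lay below both Control pools (18.9% of all genes), and in 4 both lay above (19.7%). Without the Control pool at 4 h, Eif2b4 was called lower and Eif1ad higher (0.63), though the pairs of Eif1ad gave -0.53 at 4 h and 0.84 at 24 h. The median of the members in single pairs was -0.03 at 4 h and -0.10 at 24 h.

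Most genes of eIF3 and eIF2B were on the negative side. Of the 11 eIF3 subunit genes, 10 had a negative HF difference, with a median of -0.13 and a range of -0.22 to 0.03. In 6 both HF pools lay below both Control pools (Eif3b, Eif3c, Eif3f, Eif3i, Eif3k and Eif3l), against 18.9% of all genes. Of these, other probe sets above the filter were negative for Eif3c and Eif3i and positive for Eif3l (0.54). None of the 11 genes passed the test, the smallest adjusted p being 0.2978 by limma (Eif3f). Eif3f, named after its values were seen, is a subunit that docks mTORC1 and a target of the muscle ubiquitin ligase atrogin-1 and read 12695, 11643 and 11277 at 4 h and 12986, 10765 and 10345 at 24 h. Both high-fat diets lay below Control at both times. Of the eIF2B subunit genes 4 of 5 had a negative difference (median -0.15).

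Eif2b4, the delta subunit of eIF2B, had the largest negative HF difference of the set. It read 3513, 2918 and 2890 at 4 h and 4083, 2968 and 2824 at 24 h. The Control pools stood apart and the 4 high-fat pools lay close together. HF against Control was -0.36 ± 0.09 on the log2 scale (adjusted p 0.1246 by limma), and both high-fat diets against Control, which shares those Control pools, gave -0.39 ± 0.08 (adjusted p 0.07188). Eif2b4 was called lower without the Control pool at 4 h (adjusted p 0.01438 for HF and 0.003661 for both high-fat diets) and, for both diets, without the HF pool at 4 h (0.03999). It had 1 probe set, so no second reading exists.

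Eif2b1 (alpha) and Eif2b3 (gamma) encode other subunits of the exchange factor. Eif2b1 read 1575, 1483 and 1551 at 4 h and 1860, 1430 and 1637 at 24 h, with HF the lowest each time (-0.23 ± 0.10, adjusted p 0.3429). Dropping the 24 h pool of Control or of HF left -0.12 or -0.13, and dropping the 4 h pool of either left -0.35 or -0.34. Eif2b3 read 806, 738 and 767 at 4 h and 826, 729 and 915 at 24 h, again lowest on HF. Eif2b5, the catalytic subunit, showed no such order, at 2089, 2257 and 2213 and then 2373, 2228 and 2073.

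Eif4b, which stimulates the eIF4A helicase, read 5616, 4589 and 4692 at 4 h and 5998, 4732 and 5199 at 24 h. The 4 high-fat pools lay below both Control pools, with an HF difference of -0.32 ± 0.08 (adjusted p 0.122 by limma, the smallest of the set) and pairs of -0.29 and -0.34. Its other probe sets gave -0.29 and -0.12. Eif4g2 lay the other way, at 0.15 ± 0.08 with an adjusted p of 0.4273, and its probe sets did not share a direction: those above the filter gave 0.15, 0.08, -0.20 and -0.26.

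Eif1a, an eIF1A gene for the factor that keeps the scanning subunit open, read 588, 671 and 790 at 4 h and 547, 725 and 787 at 24 h. At both times the order was Control, HF, HF+SFC+ALA, with the highest difference of the set for HF (0.30 ± 0.12, adjusted p 0.3141) and for both high-fat diets (0.39 ± 0.11, adjusted p 0.1401 by limma). A second probe set gave 0.14 and 0.05. Eif2a, a separate factor that can deliver initiator tRNA and is no subunit of eIF2, read 1729, 1773 and 1762 at 4 h and 1701, 1916 and 2158 at 24 h. Its 4 high-fat pools lay above the Control pools by 0.14 ± 0.09 on average (adjusted p 0.4596). A second probe set of Eif2a gave 0.01. There HF and HF+SFC+ALA lay above Control at 4 h (0.36 and 0.16) and below it at 24 h (-0.31 and -0.16).

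For both high-fat diets against Control, no member was called (77 of all genes, 0.668%; 0.408% higher and 0.26% lower). At an unadjusted p under 0.05 there were 8 of 45, 1 higher and 7 lower, against 16.5% of all genes. Differences were negative for 33 of 45, with a median of -0.05 against -0.0048 for all genes. All 4 high-fat pools lay below both Control pools in 9 members (10.7% of all genes) and above in 2 (10.4%). These 9 were Eif2b4, Eif3b, Eif3c, Eif3f, Eif3i, Eif3k, Eif4b, Eif4ebp2 and Eif5. The 5 eIF2B genes had negative fitted values, with a median of -0.06. So did the eIF2 kinase genes, with a median of -0.13, but Eif2ak2 lay at -0.01 ± 0.26 and its other probe sets gave 0.26 and 0.32.

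The size of the diet differences depended on how the arrays were set to a common level. With each array centred on its median, the median of all genes moved by -0.11 for HF against Control and by -0.08 for both high-fat diets. The members moved with it, to a median of -0.17 for HF, which left them -0.06 from the median of all genes before and after centring. For both high-fat diets that distance was -0.04 before and after. With quantile normalization the distance for HF was -0.03, at a members' median of -0.04 with 18 positive against 16 as deposited, and for both high-fat diets it was -0.04. With centring, Eif2b4 and Eif4b were called lower for HF (adjusted p 0.02969 and 0.02558), and these and Eif5 for both high-fat diets (0.02014, 0.03662 and 0.0435 by limma). With quantile normalization no member was called in either comparison. Of all genes called for HF, 63.7% were higher as deposited and 23.0% after centring. For both high-fat diets these shares were 61.0% and 30.6%, and for fasting 61.9% and 44.2%.

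Markers of other cell types also differed with the high-fat diet. Of 8 adipocyte markers measured, 3 were called higher for HF (Adipoq, Cidec and Lep), 5 of the 8 had a positive difference and 3 a negative one, and the list's summed signal was 28889 and 36475 in the Control pools, 38036 and 44357 in the HF pools and 35094 and 36823 in the HF+SFC+ALA pools. Of 9 fibroblast markers, 4 were called higher, with sums of 33711 and 32566 for Control, 43402 and 42836 for HF and 40240 and 34707 for HF+SFC+ALA. All 11 macrophage markers above the filter had a positive HF difference and none was called, with sums from 3154 to 3484 in Control and from 3998 to 5391 in the high-fat pools. No marker of these lists stayed below the floor of 26.4 in all pools. Their part in the lower initiation factor signals was not tested, nor was that of the actin ratio of the HF pool at 4 h.

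**Figure D3:**
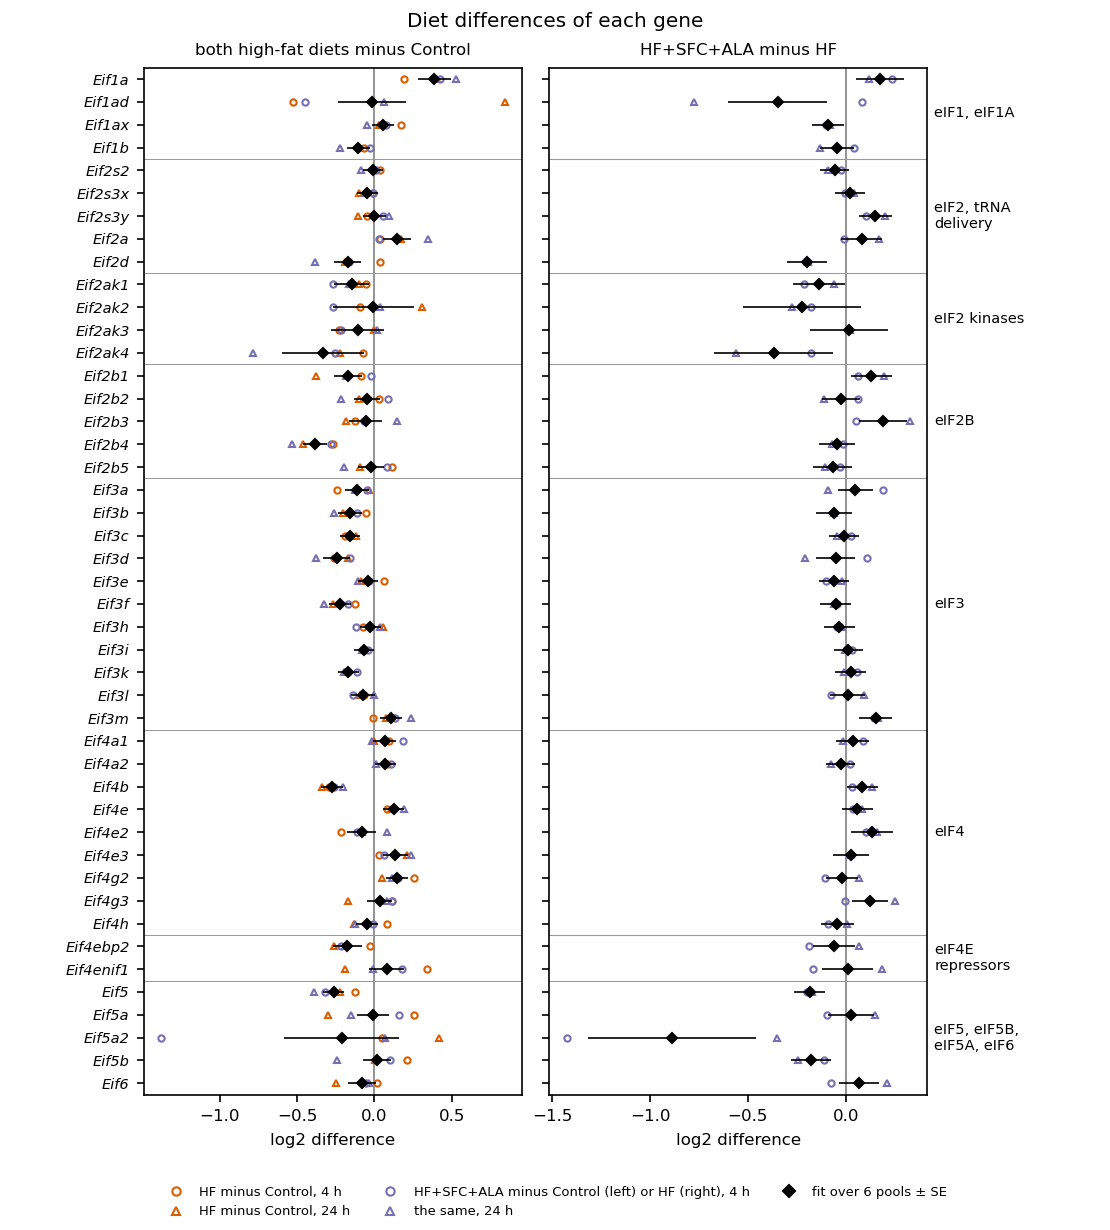
The left panel gives the log2 differences of the HF pools (orange) and HF+SFC+ALA pools (purple) from the Control pool of the same fasting time, and the right panel those of HF+SFC+ALA from HF, with circles for 4 h, triangles for 24 h and black diamonds for the fit with its standard error. On the left most eIF3 genes, Eif2b4, Eif4b and Eif5 lie below 0, and on the right Eif5a2 has the lowest value.

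The supplement compared HF+SFC+ALA with HF. No member and no other gene was called (0 of 11526, 0.0%) by limma, and 1 of 45 members had an unadjusted p under 0.05 against 5.08% of all genes. The differences were positive for 21 and negative for 24 members, with a median of -0.02 against -0.0049. Pools did not overlap for 6 members above (13.1% of all genes) and 12 below (15.8%).

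The member past the unadjusted threshold was Eif5, the GTPase-activating factor of eIF2, named after its values were seen. It read 6158, 5655 and 4927 at 4 h and 6732, 5775 and 5131 at 24 h, so that at both times it was highest on Control and lowest on HF+SFC+ALA. The log2 difference from HF was -0.18 ± 0.08 (adjusted p 0.9573 by limma). Of its 4 other probe sets above the filter, 2 were lower in this comparison (-0.14 and -0.08) and 2 higher (0.01 and 0.13), and for HF against Control all 4 were higher, by 0.08 to 0.09, where the chosen one was -0.17.

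Eif5a2 had the lowest supplement difference, -0.89 ± 0.43 (adjusted p 0.9701). It was dim, at 87.5, 90.4 and 33.6 at 4 h and 79.4, 106 and 83.2 at 24 h, and the HF+SFC+ALA pool at 4 h alone lay far below the rest, near the floor of 26.4. Among members lower than HF at both times, Eif2ak4 (-0.37 ± 0.31) and Eif2ak2 (-0.22 ± 0.30) came next, with adjusted p values of 0.9728 and 0.9768 by limma. Among members higher at both times, the largest differences were those of Eif2b3 (0.19 ± 0.12), Eif1a (0.18 ± 0.12) and Eif3m (0.15 ± 0.08). Eif2b3 had 1 probe set, while a second one above the filter went the other way for Eif1a (-0.18) and for Eif3m (-1.03, on a dim probe set). On the chosen probe set Eif3m, an eIF3 subunit, read 3559, 3535 and 3903 at 4 h and 3621, 3806 and 4261 at 24 h, with the HF+SFC+ALA pool the highest at both times.

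Many members had more than 1 probe set, which gave a second reading of the same RNA. Of 130 probe sets of the members 106 passed the filter, and 30 genes had more than 1. All probe sets of a gene shared the sign of the fasting difference in 17 of these 30 genes, of the HF difference in 17, of the supplement difference in 10 and of both high-fat diets against Control in 14. For Eif2s2, HF against Control was 0.02 on the chosen probe set and -0.82 on another. Of the chosen probe sets 4 ended in _x_at and 3 in _s_at, which mark probes that also match other transcripts, so paralogs may share their signal.

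**Figure D4:**
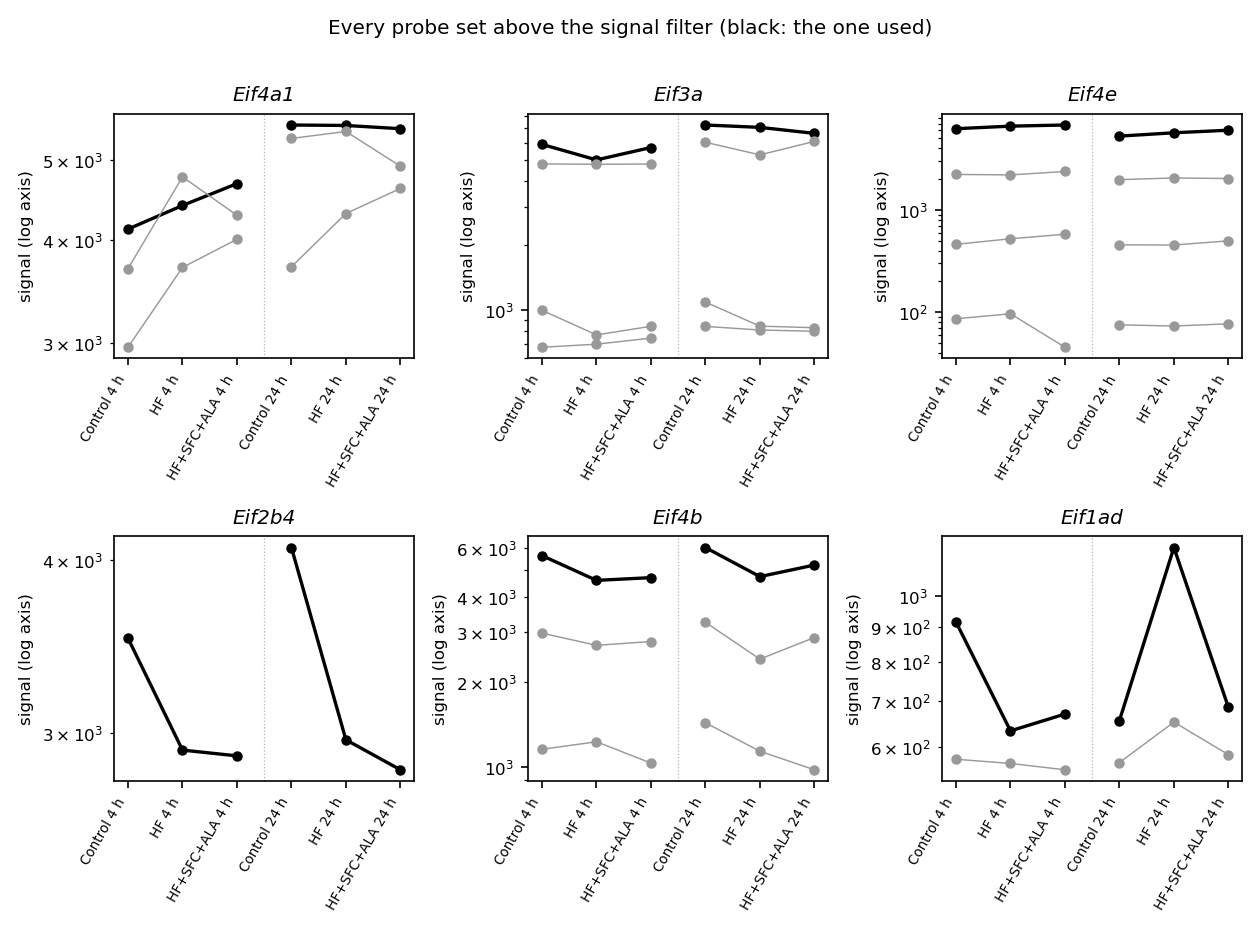
Signals on a log axis of every probe set above the filter in each pool, for 6 members; the probe set used is black, and lines only join the diets within a fasting time. Eif4a1 and Eif3a lie higher at 24 h on most probe sets, Eif2b4 has 1 probe set, and the peak of Eif1ad in the HF pool at 24 h is small on its second probe set.

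Genes around initiation were read from lists of signalling genes and partners. Of 21 genes measured that carry mTORC1 signals to initiation, 2 were called higher after 24 h: Eif4ebp1, the eIF4E-binding repressor kept out of the member set, at 0.78 ± 0.13 (adjusted p 0.0213), and Ddit4l, an mTORC1 inhibitor, at 0.31 ± 0.06 (0.0456 by limma). Eif4ebp1 read 4734, 3558 and 3463 at 4 h and 10931, 4502 and 5959 at 24 h, with the Control pool at 24 h far above the others. For both high-fat diets against Control 1 was called lower, the mTORC1 inhibitor Ddit4, at -1.16 ± 0.21 (adjusted p 0.0457).

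Among 15 genes of the integrated stress response, the programme that eIF2 kinases start, 1 was called. Ppp1r15a, which brings a phosphatase to eIF2, read 1114, 743 and 628 at 4 h and 2270, 926 and 1188 at 24 h. It rose with fasting (0.75 ± 0.13, adjusted p 0.0243) and was lower for HF (-0.94 ± 0.16, 0.0346) and for both high-fat diets (-0.91 ± 0.14, 0.028 by limma). Atf4, the transcription factor at the head of that programme and named after its values were seen, did not pass at -0.38 ± 0.08 for HF (adjusted p 0.0599).

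No gene was called in any of the 4 comparisons among 13 elongation and termination factors, 18 partners of the cap complex or 8 mitochondrial initiation and elongation factors. The elongation and termination factors had a median HF difference of -0.15, with 3 of 13 positive, and a median fasting difference of 0.01. The median HF difference was -0.04 for the cap-complex partners and 0.07 for the mitochondrial factors.

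The median profile of the 45 members, each centred on its mean, ran over the narrow range from -0.04 to 0.07 on the log2 scale and was highest in the Control pool at 24 h. The genes most like it over the 6 pools were Keap1 (Pearson r 0.989), Snhg8 (0.9885), Mon2 (0.9881), Tmem120b (0.9878) and Pxn (0.9878), as a description over 6 pools that were searched through 11526 genes.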

How the data were processed

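Total RNA of pooled gastrocnemius muscle was labelled with a 3' IVT kit, per the labels' protocols. The deposited values are intensity per probe set on a linear scale, and come from MAS5, according to the submitters' processing notes; the sources used here do not give its settings. Of 45101 probe sets, 64 controls were left out, and of the others 34945 had 1 platform symbol, 932 several and 9160 none. Signals below the 30th percentile (26.4) were set to it before log2, which applied to 96 values of tested genes. A gene was kept if the mean log2 signal of its probe set lay above 5.88, the median over all probe sets other than controls. All 11526 entered 1 limma 3.58.1 fit in R 4.3.3 with additive terms for diet and fasting time (eBayes with trend; degrees of freedom 2 residual, 7.27 prior) and Benjamini-Hochberg adjustment. The number of arrays limits the precision. The fit was tested on simulated data. Alternatives changed the floor, the normalization, the filter, the choice of probe set, the spread estimate, the block and the pools used.

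The members and lists were chosen with earlier results of these data known. Described with all 6 signals were members called, the 3 most positive and negative differences per comparison with the same sign in every pair of pools, and 12 genes picked by role. Up to 3 called genes per pathway list are named. Comparisons that share pools are not independent. Of the marker lists, slow fibre (8 measured) and endothelial (9) genes had none called in any comparison. Among 7 smooth muscle genes, Acta2 and Tagln were lower after 24 h and Tagln was higher for HF. For fasting, Pnpla2 (adipocyte) was higher, and Cd163 (macrophage), Col1a1 (fibroblast) and Ighm, the only lymphocyte gene measured, were lower. The 4 Schwann cell genes and 1 erythroid gene had none called. Promoter windows came from RefSeq (GRCm38.p6). Python 3.11.15 with pandas 2.3.3 and matplotlib 3.10.9 made tables and figures.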

Additional observations from a re-analysis of the deposited data

Results flagged for a closer look

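Eif1ad, a relative of eIF1A, went opposite ways in different diets. In the order Control, HF, HF+SFC+ALA, it read 915, 634 and 671 at 4 h and 656, 1176 and 686 at 24 h. The fasting difference was -0.4796 (log2) on the Control diet and 0.8925 on HF. For HF against Control it was -0.5298 at 4 h and 0.8422 at 24 h, from the same 4 pools. The HF pool at 24 h was the highest, and on the second probe set the HF pair gave 0.20 where the first gave 0.89. Eif5a also differed in sign for HF against Control, at 0.2588 at 4 h and -0.302 at 24 h. With 1 pool in each cell of the design these differences were not tested. Opposite signs of at least 0.25 in both directions occurred in 13.8% of all genes for fasting and in 6.51% for HF against Control, against 1 and 2 of the 45 members.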

How the results depend on the processing

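No pairing beyond diet and fasting time was possible because each group had 1 pool and the labels carry no replicate numbers to pair by. The model itself compares pools within a diet or a fasting time. The 2 fasting calls fell to 0 with no floor, with arrays centred on their medians, with no filter on signal, with the mean over a gene's probe sets, without the intensity trend and with diet left out of the model, and to 1 with a pseudocount. Quantile normalization and a filter at the 65th percentile kept 2. Without 1 pool the count was 0 to 2 (without a Control pool, Eif3a and Eif1ad), 0 to 2 for HF against Control (without the Control pool at 4 h, Eif1ad higher and Eif2b4 lower) and 0 to 1 for both high-fat diets; a lone pool is then assumed to vary like the others. Over all genes, fasting calls fell from 278 to 0 without the filter (2026 at an unadjusted p under 0.05) or the trend (1639), 18 with probe-set means, 60 without diet and 59 without either HF+SFC+ALA pool, and rose to 455 and 452 when the Control pool of 4 h or 24 h was dropped. HF calls went from 102 to 352 with centring, 0 without the filter (1993 at an unadjusted p under 0.05), the trend (1348) or fasting time (982), 1 with probe-set means, 592, 275, 279 and 47 when Control 4 h, HF 4 h, Control 24 h or HF 24 h was dropped, and 58 or 59 with an HF+SFC+ALA pool dropped. For both high-fat diets they went from 77 to 255 with centring, to 0 without the filter (2113 at an unadjusted p under 0.05), the trend (1448) or fasting time (1122) and with probe-set means (1489), and to 622, 387, 217, 6 and 16 when Control 4 h, HF 4 h, Control 24 h, HF+SFC+ALA 4 h or HF+SFC+ALA 24 h was dropped. For the supplement 0 became 18 with centring, 6 with the stricter filter, 107 or 109 with a Control pool dropped, 4 without HF 4 h and 2 without HF+SFC+ALA 4 h.

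Centring moved the median difference of the members to 0.0128 for fasting and -0.17 for HF, with 2 members called lower, and to -0.13 for both high-fat diets, with 3 called lower. Without 1 pool the latter median ran from -0.08267 to -0.04636. The supplement median was -0.0141 with quantile normalization, 0.05182 with centring, -0.0132 with no filter, 0.0012 with the stricter filter, -0.025 with probe-set means and -0.025 to -0.0093 without 1 pool. The sign turned for Eif1ad (fasting -0.2233 when either HF pool was dropped, in a range to 0.4628; HF -0.315 and -0.4017 when the Control or the HF pool of 24 h was dropped, in a range to 0.7141) and for Eif5a2 (HF -0.2219 when the Control pool of 24 h was dropped, in a range to 0.6845). With probe-set means it turned for Eif1a (-0.0004049) and Eif3m (-0.4385) under the supplement, and for Eif4g2 (-0.0194) and Eif5 (0.0077) for both high-fat diets. The cause was not tested. Of 396 values of single genes under an alternative, 353 kept their direction and side of the threshold, 23 lost a call, 11 gained one and 9 turned.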

Other observations

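Some probe sets that match initiation factor genes are tied by the platform to more than 1 gene and were not used for the members. In the order Control, HF, HF+SFC+ALA, the probe set shared by Gm5576 and Eif4a3 read 1489, 1438 and 1395 at 4 h and 1906, 1688 and 1637 at 24 h. Each pool at 24 h lay above each at 4 h, with log2 differences of 0.36, 0.23 and 0.23 within the diets. The probe sets shared by Eif3j2 and Eif3j1, copies of the loosely bound eIF3 subunit, numbered 3. Their mean fasting differences were 0.21, 0.15 and 0.19. In both the Control and the HF+SFC+ALA diet all 3 were higher at 24 h, while the HF pairs gave -0.09, -0.18 and 0.10. Which gene gave these signals cannot be told apart, and no test was run on them.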
